A study of Mus musculus with 22 samples.

Results

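The genes for the proteins of the cytosolic ribosome were described at their transcription start sites (TSS) in mouse embryonic stem (ES) cells after depletion of TERRA, the RNA transcribed from telomeric repeats. Members were the protein-coding genes of RefSeq on GRCm38 with a curated transcript whose symbol was Rpl or Rps, an optional p, a number and at most 1 letter a, l or x. The rule found 80 of 21000 coding genes, 50 for the large subunit (Rpl, with the stalk proteins Rplp0, Rplp1 and Rplp2) and 30 for the small subunit (Rps), of which 76 lie on autosomes and 4 on the X chromosome. The symbols, and no measured value, chose the members. Symbols outside the pattern, such as Rpsa and Fau, were kept as a list of 8 genes beside them. The cells were of the 16.7 line, an F1 hybrid (CAST/Ei x 129/Sv/Jae) grown with LIF and freed of feeder cells before transfection. One group had received scramble LNA and the other LNA against TERRA, gapmer oligonucleotides that direct RNase H to their target RNA, and both were collected after 12 h. ATAC-seq for open chromatin, and ChIP-seq with the BG4 antibody for DNA G-quadruplexes (G4), for the chromatin remodeller ATRX and for H3K9me3, the mark of constitutive heterochromatin, were each made from 2 scramble KD and 2 TERRA KD samples, which gave 16 peak lists. All samples came from 1 cell line, and the peak lists hold no measure of TERRA itself.

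Ribosomal protein genes are transcribed in every growing cell, and their mRNAs are among the most abundant. Most have short first exons and compact gene bodies, many carry small nucleolar RNAs in their introns, and their mRNAs begin with a C followed by a run of pyrimidines, the 5′ terminal oligopyrimidine (TOP) tract, through which mTOR signalling controls their translation. A few paralogs, such as Rpl3l in heart and skeletal muscle and Rpl10l and Rpl39l in the testis, are used mainly in single tissues. ATRX is known to bind repeats and G-rich sequence, and G4 structures form mainly at G-rich open promoters, and the questions here are how often these promoters carry G4 beside open chromatin and whether TERRA KD changes either.

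The starts of 6 genes with a TOP tract are printed first because the tract is the family's best known sequence feature. Those of Rps29 and the paralogs Rpl39l and Rpl3l follow, without a tract at the annotated start. Rpl39l has a run of 7 pyrimidines that ends just before its annotated start. Each stretch holds the 10 bases before the RefSeq start and the 20 bases from it, 5′ to 3′ on the strand of the gene, read from the GRCm38.p6 sequence. Capitals mark the longest run of C and T.
Rpl35: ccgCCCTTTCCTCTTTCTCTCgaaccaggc
Rpl15: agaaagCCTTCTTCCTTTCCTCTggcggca
Rpl32: ccgCCTCTTCCTTCTTCCTCggcgctgcct
Rpl14: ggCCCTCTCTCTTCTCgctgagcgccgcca
Rps10: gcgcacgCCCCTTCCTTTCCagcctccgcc
Rpl28: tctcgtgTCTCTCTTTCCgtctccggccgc
Rps29: gcggaCCaatgttgtcgcacggcgtacgcg
Rpl39l: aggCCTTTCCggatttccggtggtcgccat
Rpl3l: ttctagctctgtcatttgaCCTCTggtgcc
These lie at chr2:39005112-39005141 on the minus strand for Rpl35, chr14:18270967-18270996 minus for Rpl15, chr6:115808724-115808753 minus for Rpl32, chr9:120571507-120571536 plus for Rpl14, chr17:27635225-27635254 minus for Rps10 and chr7:4792955-4792984 plus for Rpl28. The other stretches lie at chr12:69159167-69159196 minus for Rps29, chr16:10170218-10170247 plus for Rpl39l and chr17:24727816-24727845 plus for Rpl3l. The last 20 letters of each are the beginning of exon 1.

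A C at the annotated start followed by at least 4 pyrimidines was found in 14 of the 80 members (17.5%) and in 2.22% of all coding genes. The longest pyrimidine run in these 30 bases had a median of 6 bases in members and 4 in all coding genes, with the longest, 20 bases, in Rpl27a, and 18 in Rpl35, a large-subunit protein near the exit tunnel. The run could begin before the annotated start, as in Rpl35, where it began 7 bases upstream. At the other end, Rps29, Rps3 and Rpl21 had no run longer than 2 bases. These genes outside the naming rule were chosen after their values were seen.

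From 250 bases before the start to 50 after it, the ratio of observed to expected CpG had a median of 0.863 in members, 0.595 in all coding genes and 0.761 in the 13229 coding genes with an ATAC peak at the TSS in all 4 lists, called open genes from here on. The letters CCGGAAG, the core of the ETS family motif, occurred on either strand in 31 members (38.8%), in 12.0% of all coding genes and in 17.4% of open genes. The 78 mitochondrial ribosomal protein genes had them in 37.2%. The YY1 letters AAGATGGC occurred in 7.5% of members, 3.23% of all coding genes and 4.39% of open genes. The mitochondrial ribosomal protein genes had these letters in 16.7%. The SP/KLF letters GGGCGG occurred in 56.2% of members, between the 47.9% of all coding and the 66.6% of open genes. The TATA letters TATAAA occurred in 13.8%, 13% and 6.82%. The ETS and YY1 letters can overlap by AAG, and a match is a match of letters only.

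The depth after removal of duplicates ran from 5976014 to 7883648 tags for ATAC, 2961038 to 24588605 for G4, 4104486 to 15506154 for ATRX and 5435286 to 13898785 for H3K9me3, and the number of peaks from 78571 to 103911, 140119 to 389434, 7321 to 41384 and 25490 to 76213. G4 TERRA KD replicate 2 stood apart: it had a G4 peak at 20.5% of coding TSS, against 44.1% to 65.1% in the other 3 G4 lists. An ATAC peak lay at the TSS of 9 or 10 of 10 ES cell markers in every list, and of 4 or 5 of 8 feeder fibroblast markers. A peak at a TSS means a called peak with at least 1 base within 1 kb of it. A peak list says where the enrichment passed a p of 0.01 and not how strong the signal was elsewhere, and a weak peak in all cells cannot be told apart from a strong one in few cells. Strength is given as the percentile of a peak by its −log10 p among all peaks of its own list, 100 being the strongest, since neither tag counts nor −log10 p are scaled between libraries. Unless another order is named, 4 values in a row stand for scramble KD replicate 1, scramble KD replicate 2, TERRA KD replicate 1 and TERRA KD replicate 2.

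Nearly every member had an open promoter in both conditions. An ATAC peak lay at 76 of 80 TSS in scramble KD replicate 1, 78 in scramble KD replicate 2, 76 in TERRA KD replicate 1 and 79 in TERRA KD replicate 2, or 95.0%, 97.5%, 95.0% and 98.8%. The same held for 65%, 69%, 67.8% and 69.5% of all coding genes. The means were 96.2% ± 1.77 (SD, n = 2) in scramble KD and 96.9% ± 2.65 (SD, n = 2) in TERRA KD, and the difference of 0.625 percentage points had an exact permutation p of 1, two-sided. With 2 samples against 2 the smallest p this test can give is 0.3333, so no comparison of conditions here could pass 0.05, and since only the replicate numbers tell the samples apart, the p measures the spread between these samples, which may be technical. All 30 small-subunit genes had an ATAC peak in all 4 lists. No member gained or lost an ATAC peak in both TERRA KD replicates against both scramble KD replicates, where 0.486% and 0.205% of all coding genes did.

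**Figure D1:**
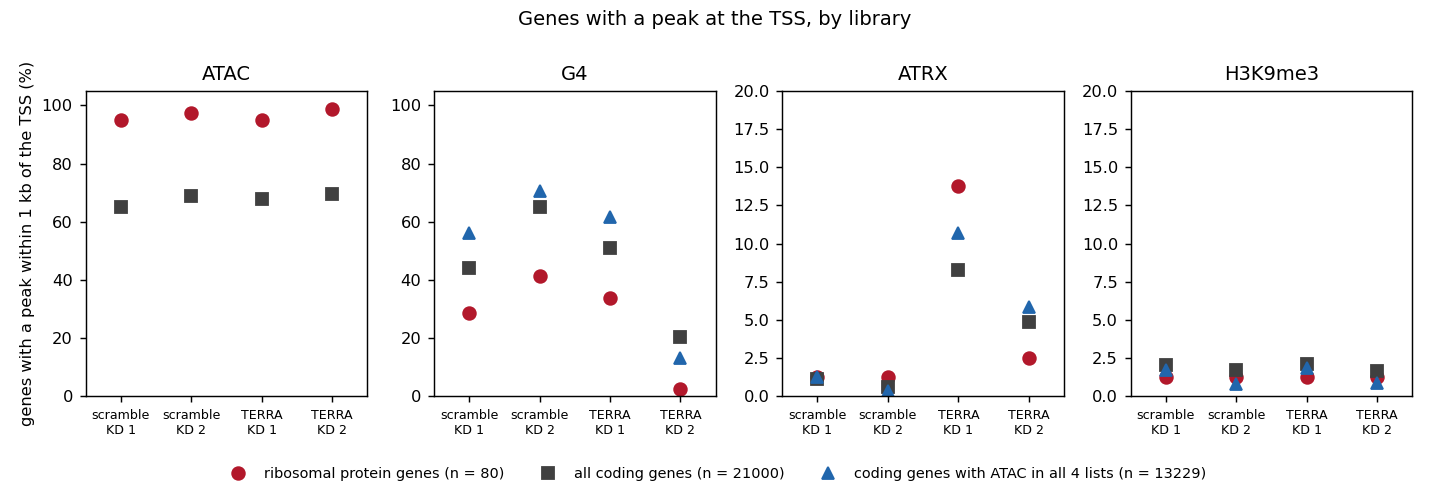
Percent of genes with a peak within 1 kb of the TSS (vertical axis) in each of the 16 libraries (horizontal axis), for the 80 ribosomal protein genes (circles), all 21000 coding genes (squares) and the 13229 coding genes with an ATAC peak in all 4 lists (triangles, not drawn for ATAC, where they are 100% by construction). The circles are above the squares in all 4 ATAC lists and below them in all 4 G4 lists, and the vertical axes of ATRX and H3K9me3 end at 20%.

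The ATAC peaks of members sat close to the start. In 87.3% to 89.7% of the members with a peak the summit of the best peak was within 250 bp of the TSS, and in 65.6% to 68.5% of open genes. The median length of the best peak was 751.5 to 812 bp in members and 770 to 896 bp in open genes. The median percentile of the best peak was 83.4, 85.5, 84.9 and 87.9 in members, beside the 79.5, 85.4, 83.9 and 86.6 of open genes. TERRA KD minus scramble KD was 1.95 percentile points (exact permutation p = 0.667), with 1.56 in replicate 1 and 2.34 in replicate 2, beside an SD between replicates of 1.52 in scramble KD and 2.07 in TERRA KD, and the conditions overlapped. Single members ranged over most of the scale.

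The strongest ATAC peak belonged to Rps29, a small-subunit protein that binds zinc, with percentiles of 99.8, 99.6, 99.7 and 99.8. Rps19, in which mutations cause Diamond-Blackfan anaemia, had 99.1, 99.5, 99.3 and 99.4. Rpl37 had 98.7, 99.4, 99.5 and 99.0. Rpl10, on the X chromosome and a part of the large subunit near the P site, had 98.6, 98.4, 99.3 and 98.1. Rps13 had 98.3, 98.5, 98.7 and 97.7. These 5 were the highest by their mean over the 4 lists, and within each of them the conditions overlapped. Neighbours in this order overlapped over their 4 lists except Rps29 and Rps19, whose ranges did not meet.

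At the lower end, Rpl19 had an ATAC peak in all 4 lists with percentiles of 29.0, 47.5, 12.6 and 60.02. Both replicates 2, the deeper libraries, were higher than both replicates 1. Rpl38, a large-subunit protein known for its part in the translation of Hox mRNAs, had 52.7, 51.6, 50.9 and 47.2, a range narrower than that of Rpl19. Rpl8 had a peak in both replicates 2 alone, at 47.2 in scramble KD and 41.0 in TERRA KD. Rpl8 and the paralogs Rpl39l, Rpl3l and Rpl32l were the 4 members without an ATAC peak in at least 1 list.

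**Figure D2:**
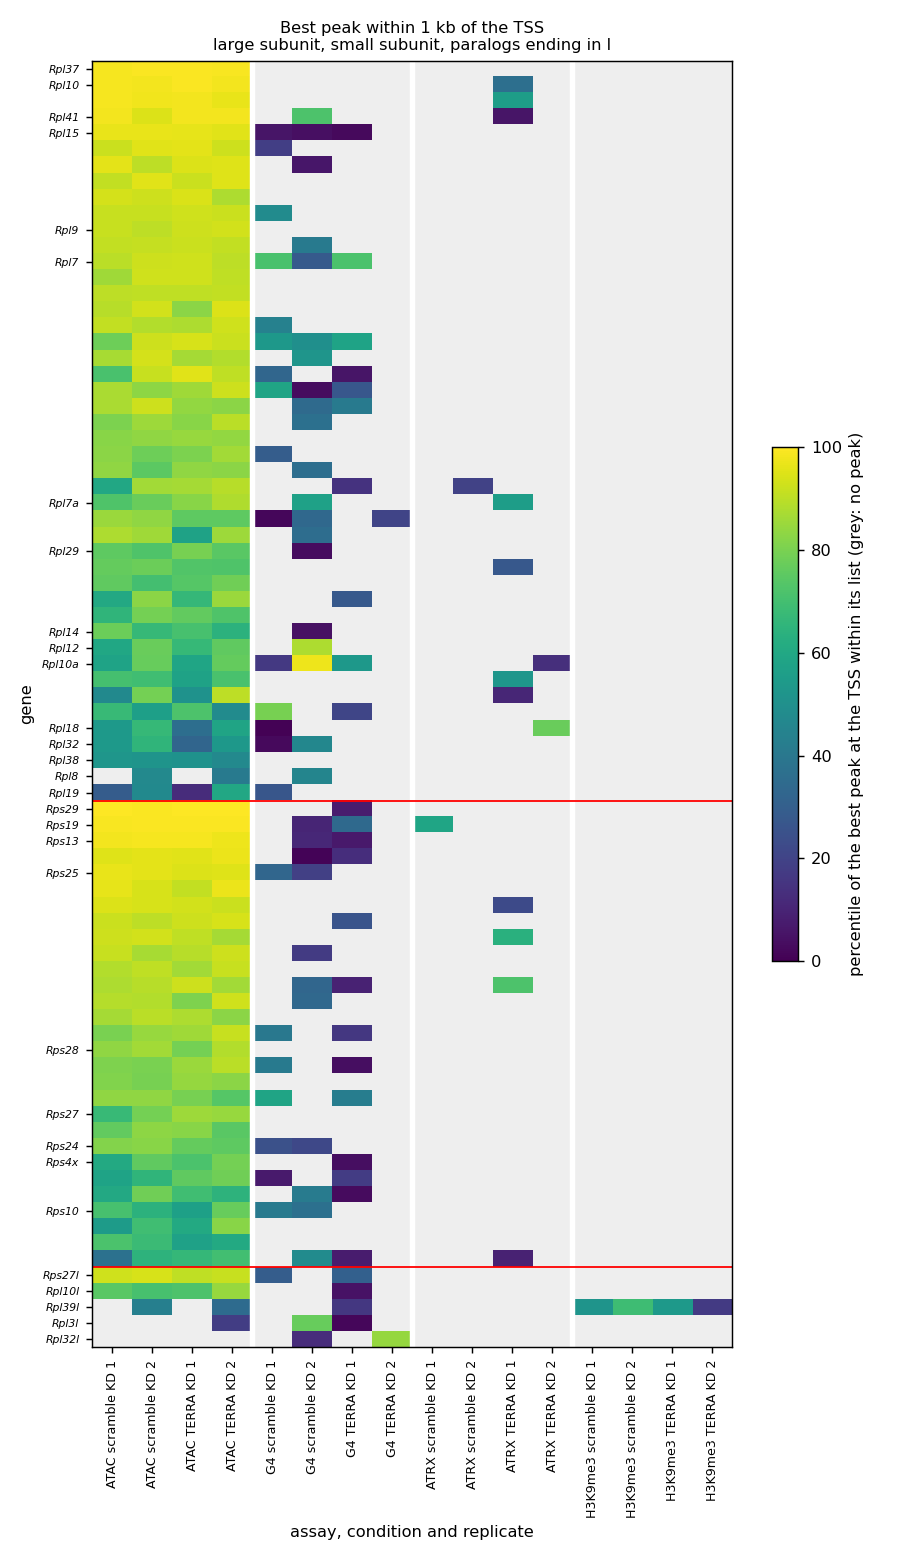
Each row is 1 of the 80 genes and each column 1 of the 16 libraries, and the colour gives the percentile of the strongest peak within 1 kb of the TSS among all peaks of its list, grey where there was none, with names at the genes the naming rule picked. Red lines part the large subunit, the small subunit and the 5 paralogs ending in l, ordered by mean ATAC percentile, and the ATAC columns are nearly full while G4 is patchy and ATRX and H3K9me3 nearly empty.

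The 5 paralogs whose symbol ends in l differed from one another. Rps27l, a p53-responsive relative of Rps27 that is widely expressed, had ATAC percentiles of 92.7, 94.0, 90.3 and 91.6, within the range of the ordinary members. Rpl10l, a single-exon gene of 1023 bp known from the testis, also had a peak in all 4 lists, at 74.5, 71.0, 72.0 and 84.6. Rpl39l, another testis paralog, had one in both replicates 2 only, at 43.1 in scramble KD and 34.9 in TERRA KD. Rpl3l, the muscle paralog of Rpl3, had one in TERRA KD replicate 2 only, at the 18.1 percentile, with the summit 821 bp downstream of the TSS. Rpl32l, a single exon of 592 bp, was the 1 member with no ATAC peak in any list. Its promoter had a CpG ratio of 0.33 and that of Rpl3l 0.0892, both under the member median. G4 peaks lay at 1, 2, 4 and 1 of these 5. Single-exon copies resemble the mRNAs of their parent genes, and reads that match both could be placed at either, so the values of Rpl10l and Rpl32l are uncertain.

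G4 peaks were scarce at these open promoters. They lay at 23 of 80 TSS in scramble KD replicate 1 (28.8%), 33 in scramble KD replicate 2 (41.2%), 27 in TERRA KD replicate 1 (33.8%) and 2 in TERRA KD replicate 2 (2.5%), while 44.1%, 65.1%, 51% and 20.5% of all coding genes had one. Open genes had one at 56.2%, 70.7%, 61.6% and 13.2%, so that in every list the share of members was lower than that of all coding and of open genes. The list of TERRA KD replicate 2 differed from the other 3 for members and for all genes alike, and its 225024 peaks from 13127555 tags were neither the fewest nor the shallowest. Of the 80 members, 27 had no G4 peak in any list, 27 in 1 list, 20 in 2 lists, 6 in 3 lists and none in all 4.

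The mean share of members with a G4 peak was 35.0% ± 8.84 (SD, n = 2) in scramble KD and 18.1% ± 22.1 (SD, n = 2) in TERRA KD. The difference of −16.9 percentage points (exact permutation p = 0.667) was made by replicate 2, where it was −38.8, whereas in replicate 1 it was 5 points the other way. Relative to all coding genes, the share of members was lower by 15.3 and 23.9 points in scramble KD 1 and 2 and by 17.2 and 17.97 points in TERRA KD, which left a difference between conditions of 1.99 points (exact permutation p = 1). The share differed by less than the SD of 22.1 in TERRA KD and by more than the 8.84 in scramble KD. The relative difference was below the SD of 6.07 in scramble KD and above the 0.51 in TERRA KD. On both measures the values of the conditions overlapped.

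Where a member had a G4 peak, it was mostly a weak one. The median percentile of the best peak was 32.9, 34.6, 16.2 and 52.3, the last over 2 members, against 58.6, 65.4, 51.6 and 52.2 in all coding genes. The median number of tags in these peaks was 5, 29, 8 and 17.5, beside 6, 27, 11 and 16 over all peaks of the same lists. Many G4 peaks, at members and elsewhere, thus rest on few reads. TERRA KD minus scramble KD was 0.51 percentile points (exact permutation p = 1), with −16.8 in replicate 1 and 17.8 in replicate 2. Under a stricter limit, a −log10 p of 5 or more, 2, 5, 1 and 1 members were left, or 2.5%, 6.25%, 1.25% and 1.25%, where 17.9%, 38.8%, 21.3% and 5.49% of all coding genes were. With the 140119 strongest peaks of each list, 28.8%, 5%, 13.8% and 1.25% of members had one, against 44.1%, 33.5%, 41.7% and 13% of all coding genes.

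Rpl10a, a component of the large subunit at the L1 stalk, had the strongest member peak, at the 97.3 percentile with 144 tags in scramble KD replicate 2, though its summit was at −2254 bp from the TSS. Its peaks in scramble KD replicate 1 and TERRA KD replicate 1 had percentiles of 16.6 and 53.3. Rpl12, at the base of the stalk, had the highest mean, from a single list: its peak in scramble KD replicate 2 was at the 87.8 percentile with 75 tags. Rpl41, which encodes the smallest ribosomal protein, and Rpl7a also had a peak in that list alone, at 72.2 and 57.3. Rpl7 had one in 3 lists, at 71.2 and 28.2 in scramble KD and 71.6 in TERRA KD replicate 1, with summits at −1728, −1030 and −1608 bp. None of these 5 had a peak in TERRA KD replicate 2. The 5 lowest, Rpl14, Rpl15, Rps4x, Rpl29 and Rpl18, had mean percentiles of 0.696 to 4.39, and of them only Rpl15 had a peak in more than 1 list.

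The 6 members with a G4 peak in 3 lists, listed after their values were seen, were Rpl5, Rpl7, Rpl10a, Rpl13, Rpl15 and the stalk protein Rplp0. Rplp0 was at 53.3 and 49.7 in scramble KD and 57.9 in TERRA KD replicate 1, and Rpl15 at 5.63, 3.99 and 2.61, whereas Rpl5, which with Rpl11 binds and inhibits Mdm2, had 58.5, 3.31 and 27.1. Rpl13 and the paralog Rpl32l were the 2 members with a peak in TERRA KD replicate 2, at 20.4 and 84.2. In both, that peak had its summit over 1 kb upstream of the TSS, at −1236 bp for Rpl13 and −1269 bp for Rpl32l. By subunit, the large subunit had 15, 22, 13 and 2 genes of 50 with a peak, and the small subunit 8, 11, 14 and 0 of 30.

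A G4 peak in both scramble KD samples and no TERRA KD sample was found at 4 members, which is 5% of members and 5.22% of all coding genes, and no member showed the opposite, found in 0.238% of all coding genes. Only 2 members had a G4 peak in TERRA KD replicate 2, so its absence there hardly tells members apart. The losses therefore rest mostly on TERRA KD replicate 1, and at most 2 members could have gained a peak in both replicates. The 4 members were Rpl32, a component of the large subunit, and Rps10, Rps24 and Rps25 of the small subunit, of which Rps10 and Rps24 are further genes of Diamond-Blackfan anaemia. Rps10 had percentiles of 41.4 and 36.9 in scramble KD, from 6 and 25 tags. Rps25 had 32.9 and 19.02, Rps24 24.7 and 21.8, and Rpl32 2.47 and 46.4. All 8 peaks were below the middle of their lists, and their share among members was near the background. Their ATAC peaks were present in all 4 lists, at 94.7 to 96.5 for Rps25, 75.1 to 82.3 for Rps24, 56.9 to 76.7 for Rps10 and 32.7 to 65.4 for Rpl32.

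A G4 motif, at least 4 runs of 3 or more G with loops of 1 to 7 bases on either strand, occurred within 1 kb of the TSS in 33 members (41.2%), in 57.2% of all coding genes and in 68.8% of open genes. The 78 mitochondrial ribosomal protein genes had it in 41.0%. The motifs of at most 30 bases at members that lost the peak in both replicates or ranked highest are shown, with runs of G in capitals and on the strand that holds the G.
Rps10, upstream: GGGGGcGGGGtggaggaGGGGGcGGG
Rps25, first upstream: GGGGtGGGccGGGctcgaGGGcGGGG
Rps25, second upstream: GGGctggtgcGGGGtGGGagtGGG
Rps25, last upstream: GGGagtGGGagtaagcGGGGcGGGG
Rpl12, downstream: GGGatgtGGGtgctGGGacttGGG
Rpl10a, downstream: GGGccgcGGGGcgtccgcGGGcgtgtGGG
They lie at chr17:27635387-27635412 minus for Rps10, at chr9:44407104-44407129, chr9:44407064-44407087 and chr9:44407022-44407046, all minus, for Rps25, at chr2:32962234-32962257 plus for Rpl12 and at chr17:28328659-28328687 minus for Rpl10a. In Rps10 the motif began 168 bases before the TSS on the coding strand, whereas the summits of its G4 peaks were at 252 and −1433 bp. The first Rps25 motif began 610 bases before the TSS on the template strand, and the summit in scramble KD replicate 1 was at −622 bp, next to it, while that in replicate 2 was at 91 bp. Rpl32 and Rps24, which lost the peak, and Rpl41 and Rpl7a, among the highest ranked, had no motif in the window.

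Shares with and without the motif lay closer together among members than among open genes in all 4 lists, a contrast that was not tested. With it, 11, 16, 11 and 1 of 33 members had a G4 peak, and without it 12, 17, 16 and 1 of 47. In percent this was 33.3, 48.5, 33.3 and 3.03 with the motif and 25.5, 36.2, 34.0 and 2.13 without it. Open genes had 64.3, 74.9, 68.6 and 13.9 with it and 38.4, 61.3, 46.2 and 11.4 without it. Members were lower than open genes on both sides of this split in every list.

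Since open genes with higher GC had a G4 peak more often in 3 of the 4 lists, members were also set beside other open genes of like GC, a split chosen after the data were seen. The GC content within 1 kb of the TSS had a median of 52.2% in members and 54.2% in open genes. In the bin from 50 to 55%, which held 42 of the 76 members with ATAC in all 4 lists, 40.5%, 40.5%, 31.0% and 2.38% had a G4 peak, against 48.9%, 70.1%, 54.9% and 12.7% of 4311 other open genes. From 45 to 50%, with 22 members, the shares were 9.09%, 9.09%, 27.3% and 0%, against 23.0%, 45.8%, 34.1% and 10.5%. From 55 to 60%, with 11 members, the shares were 27.3%, 90.9%, 45.5% and 0%, against 74.3%, 84.0%, 77.1% and 15.8%, so that scramble KD replicate 2 went the other way. Above 60% there was 1 member, which had a G4 peak in the first 3 lists, as did 88.4%, 87.4% and 90.3% of other open genes, and none in the last. Weighting the other open genes to the GC of the members gave 45.6%, 65.3%, 52.6% and 12.5%, and the members had 30.3%, 39.5%, 32.9% and 1.32%. The gap was smaller after weighting, and members stayed lower in every list.

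**Figure D3:**
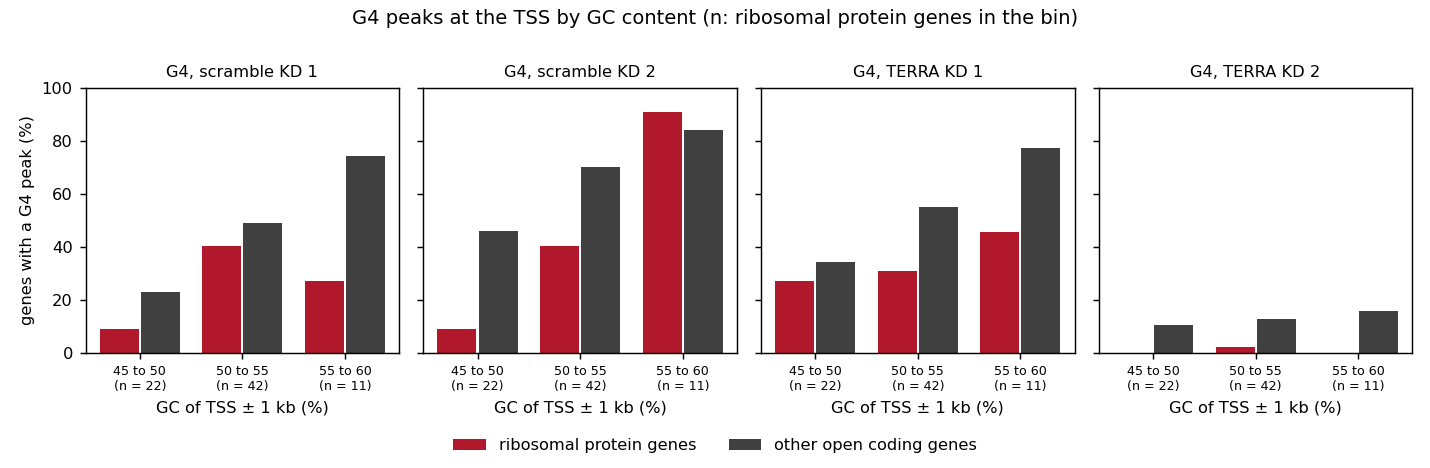
Percent of genes with a G4 peak within 1 kb of the TSS (vertical axis, from 0) by GC content of that window (horizontal axis) in the 4 G4 libraries, for ribosomal protein genes (red) and other coding genes with an ATAC peak in all 4 lists (grey). The numbers under the bins are of ribosomal protein genes, the bin above 60%, with 1 ribosomal protein gene, is not drawn, and the red bar is lower in all drawn bins but 1, that from 55 to 60% in scramble KD replicate 2 (90.9% against 84.0%).

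Along the gene, the G4 gap went on past the start. Counted in bins of 250 bp over the 76 members open in all lists, the first bin after the TSS held a G4 peak in 26.3%, 27.6%, 30.3% and 0% of members and in 47.1%, 62.4%, 54.6% and 7.28% of 13153 other open genes. In the bin from 750 to 1000 bp the shares were 1.32%, 10.5%, 2.63% and 0% against 18.9%, 45.1%, 31.1% and 7.28%. In TERRA KD replicate 2, no member had a G4 peak in any bin from 750 bp upstream to 3 kb downstream of the TSS. Where G4 and ATAC peaks of the same condition and replicate were both present at a member, the best peaks of both kinds overlapped in 22 of 23, 25 of 31, 23 of 25 and 0 of 1 members, beside 81.1%, 82.2%, 85.2% and 59.8% of all coding genes.

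**Figure D4:**
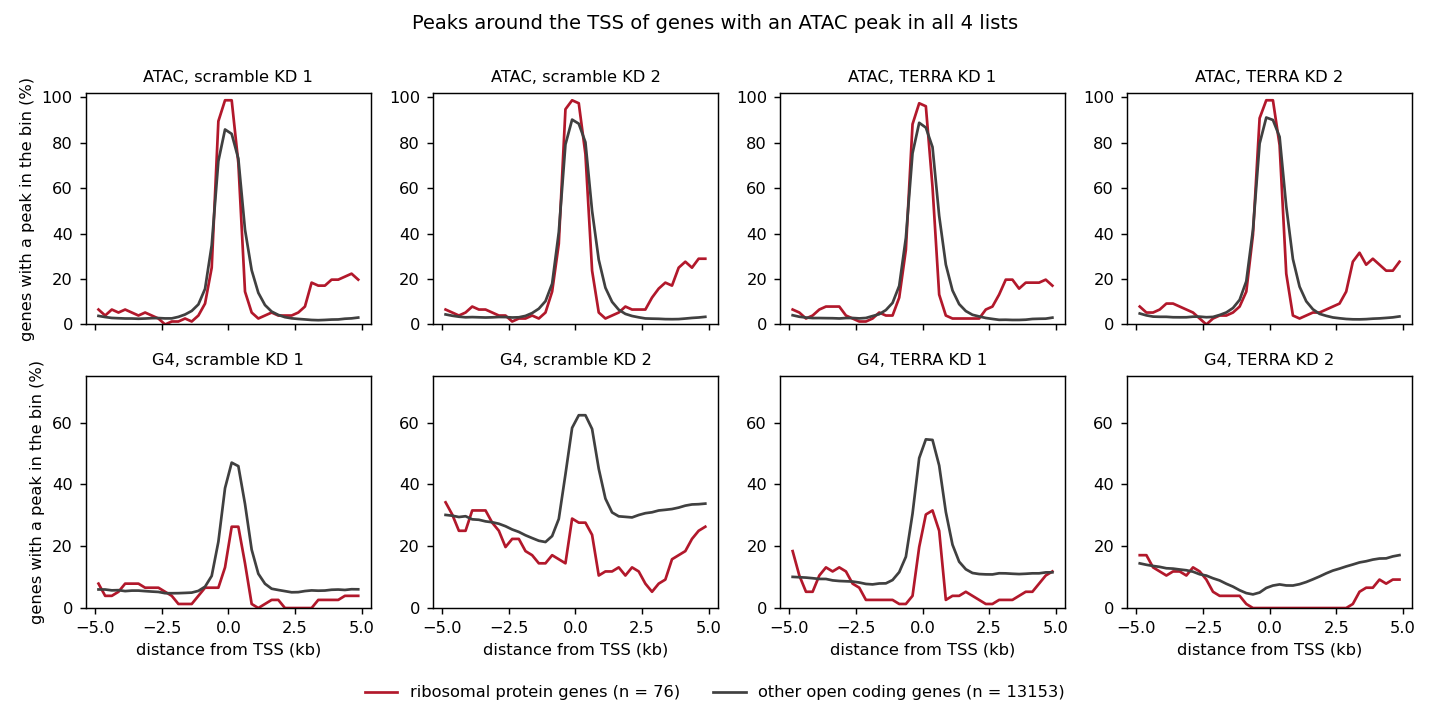
Percent of genes with a peak in each 250-bp bin (vertical axis) by distance from the TSS along the gene in kb (horizontal axis), for the 76 ribosomal protein genes with an ATAC peak in all 4 lists (red) and 13153 other such genes (grey), ATAC above and G4 below. The red ATAC curve is narrow and rises again from about 3 kb downstream, where the gene ends fall, and the red G4 curve is under the grey one around the TSS in all 4 libraries.

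The second rise of ATAC peaks lay at the gene ends, which led to a comparison added after the data were seen. Members are short, with a median of 3018.5 bp from the TSS to the most downstream curated end, against 22833 bp in open genes. In the 2 kb past that end, leaving out every peak within 1 kb of a coding TSS, an ATAC peak lay at 32 of 80 members in scramble KD replicate 1 (40.0%), 38 in scramble KD replicate 2 (47.5%), 33 in TERRA KD replicate 1 (41.2%) and 48 in TERRA KD replicate 2 (60%). The share in all coding genes was 10.2%, 13.6%, 11.6% and 14.5%, and in the 3424 other open genes shorter than 10 kb it was 12.7%, 16.7%, 14.0% and 17.2%. A peak was there in all 4 lists in 27 members (33.8%) and in 7.06% of all coding genes, and in none of the lists in 31 members. The summits lay a median of 954.5 to 1250 bp past the end. In G4 the same stretch went the other way, with 2 members (2.5%), 15 (18.8%), 3 (3.75%) and 3 (3.75%), against 13.5%, 47.6%, 21.6% and 29.7% of all coding genes.

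Among the members with such a peak in all 4 lists, Rpl3, a large-subunit protein at the peptidyl transferase centre, had the strongest, at percentiles of 93.6, 94.7, 93.2 and 96.6. Its summits lay 1112, 1408, 1370 and 1008 bp past the end, and these percentiles were above those of its own promoter peak, 82.1, 83.4, 84.7 and 83.8. Rpl32 had 85.6, 86.5, 77.5 and 79.7 past the end, with both scramble KD values above both TERRA KD values. Rps12 had 76.0, 71.7, 80.5 and 78.6, with both TERRA KD values above both scramble KD values. Such an order of 2 values against 2 also occurred at other members, in both directions, and was not tested. Rpl8, whose promoter had an ATAC peak in only 2 lists, had one past its end in all 4, at 71.9, 74.5, 67.6 and 77.3. These 4 were named after their values were seen, and over all members the strongest peak past the end was of middling strength, with a median percentile of 46.6 to 52.6.

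More members had a peak past the end in TERRA KD replicate 2 than in any other list, and TERRA KD replicate 1 was between the scramble KD replicates. The mean was 43.8% ± 5.30 (SD, n = 2) in scramble KD and 50.6% ± 13.3 (SD, n = 2) in TERRA KD. The difference of 6.88 points (exact permutation p = 0.667) was above the SD of scramble KD and below that of TERRA KD, and the conditions overlapped. The order of the 4 shares followed the number of peaks in the lists, which was 78571 in scramble KD 1, 86535 in TERRA KD 1, 96994 in scramble KD 2 and 103911 in TERRA KD 2, with the shares of 40.0% and 41.2% at the shorter lists and 47.5% and 60% at the longer ones. With the 78571 strongest peaks of each list the shares were 40.0%, 42.5%, 40.0% and 51.2%. With peaks near any RefSeq transcript start left out, coding or not, they were 35.0%, 42.5%, 35.0% and 52.5%, and 11.4%, 15.1%, 12.5% and 15.5% in the short open genes.

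**Figure D5:**
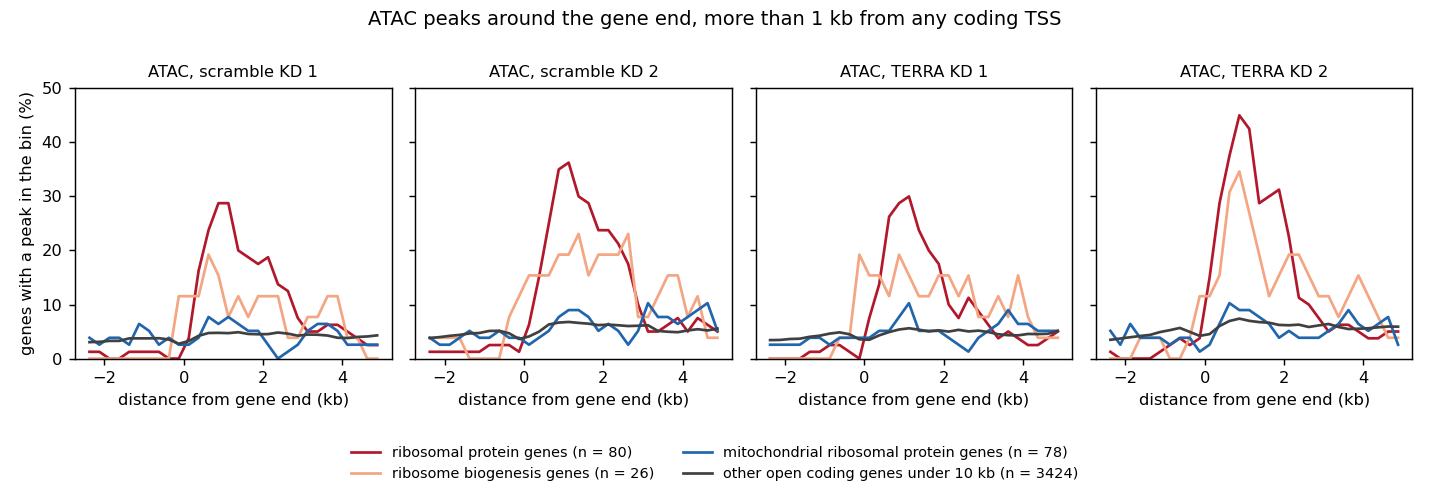
Percent of genes with an ATAC peak in each 250-bp bin (vertical axis) by distance from the gene end in kb (horizontal axis, positive past the end), peaks within 1 kb of a coding TSS left out. The curve of the 80 ribosomal protein genes has its highest point about 1 kb past the end in all 4 libraries, at 28.8%, 36.2%, 30% and 45%, while 3424 other open genes under 10 kb stay under 8%. Also drawn are 78 mitochondrial ribosomal protein genes and 26 ribosome biogenesis genes. The ribosome biogenesis curve reaches 19.2% past the end in scramble KD replicate 1 and 23.1% in scramble KD replicate 2.

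Related gene lists help to place these values. Of 26 ribosome biogenesis genes (Fbl, Ncl and Nop56 head the list), 9, 11, 11 and 13 had an ATAC peak past the end, or 34.6%, 42.3%, 42.3% and 50%. The 78 mitochondrial ribosomal protein genes, whose products sit in a different ribosome, had one in 12.8%, 15.4%, 14.1% and 16.7%, near all coding genes, and the 39 proteasome subunit genes in 15.4%, 23.1%, 17.9% and 23.1%. The 15 genes of translation elongation and other TOP mRNAs had one in 20%, 26.7%, 33.3% and 33.3%. The 8 ribosomal proteins outside the symbol rule had one in 50%, 25%, 25% and 37.5%. Of the 10 ES cell markers 5, 5, 4 and 6 had one. At the TSS all 78 mitochondrial ribosomal protein genes had an ATAC peak in every list, and G4 peaks lay at 26.9%, 56.4%, 38.5% and 5.13% of them. In ribosome biogenesis genes G4 peaks lay at 26.9%, 50%, 19.2% and 11.54%, in proteasome subunit genes at 38.5%, 56.4%, 51.3% and 10.3%, and in 15 genes of translation elongation and other TOP mRNAs at 40.0%, 73.3%, 46.7% and 26.7%. The 8 ribosomal proteins outside the symbol rule had an ATAC peak at the TSS in every list and a G4 peak in 3, 4, 1 and 0. The differences between these lists were not tested.

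ATRX peaks at members were few and weak. The lists of scramble KD replicates 1 and 2 held 1 member each, Rps19 and Rpl24, and those of TERRA KD held 11 and 2, so that 1.25%, 1.25%, 13.8% and 2.5% of members had a peak, against 1.1%, 0.586%, 8.29% and 4.85% of all coding genes. Open genes had one at 1.27%, 0.317%, 10.7% and 5.84%. The 78 mitochondrial ribosomal protein genes had one at 3.85%, 1.28%, 15.4% and 5.13%. The mean share of members was 1.25% in scramble KD, the same in both samples, and 8.12% ± 7.95 (SD, n = 2) in TERRA KD. The difference of 6.88 points had an exact permutation p of 0.3333, the smallest possible. It was 12.5 points in replicate 1 alone and 1.25 points in replicate 2 alone, and 0 both with peaks of −log10 p at least 5 and with equal numbers of the strongest peaks. Both TERRA KD values were above both scramble KD values, as was so for all coding genes, and relative to all coding genes the shares were 0.155 and 0.664 points higher in scramble KD, 5.46 points higher in TERRA KD 1 and 2.35 points lower in TERRA KD 2 (difference of means 1.14 points, exact permutation p = 1). The lists held 7321, 13652, 41384 and 21718 ATRX peaks, the most in TERRA KD replicate 1, where the share of members was also highest. Between the scramble KD lists the shares did not rise with the number of peaks. With the 7321 strongest of each list 1, 0, 0 and 1 members had a peak, near the 1.1%, 0.286%, 0.748% and 1.87% of all coding genes.

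No member had an ATRX peak in 2 lists, so none gained or lost one in both replicates, where 0.605% of all coding genes gained and 0.00952% lost one. The 11 members of TERRA KD replicate 1 included Rpl4, Rpl10, Rps2 and the ubiquitin fusion gene Rps27a, named after their values were seen. Their peaks held 4 to 6 tags each, with a −log10 p of 2.04 to 2.83, and the median over all peaks of that list was 5 tags. In TERRA KD replicate 2 the members were Rpl10a, with 8 tags and the summit 1057 bp downstream, and Rpl18, with 10 tags and the summit 1276 bp downstream. Rps19 in scramble KD replicate 1 and Rpl24 in scramble KD replicate 2 rested on 9 tags each. With peaks of −log10 p at least 5, no member had an ATRX peak in any list, and 0.0143%, 0.0143%, 0.171% and 0.11% of all coding genes had one, so that a count of 0 among 80 is near the background.

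H3K9me3 was listed at 1 member, the testis paralog Rpl39l, and there in all 4 lists. Its peaks held 65 and 83 tags in scramble KD replicate 1 and TERRA KD replicate 1, at percentiles of 51.9 and 54.0, and 7 and 5 tags in replicates 2, at 69.1 and 17.0. The peaks of the replicates 1 ran from chr16:10169752-10173415 in scramble KD and chr16:10169829-10173414 in TERRA KD, over the TSS and much of the 4684 bp of the gene, and those of the replicates 2 lay inside them. H3K9me3 lists of the replicates 1 had longer peaks throughout, with a median of 2404 and 3119.5 bp against 491 and 515 bp. The other 79 members, among them the other 4 paralogs, had none, and no member had an H3K9me3 peak of −log10 p at least 5 at its TSS, where 1.06%, 0.0714%, 1.25% and 0.186% of all coding genes had one. In all coding genes a peak lay at 2.03%, 1.71%, 2.12% and 1.68% of TSS. The share of members was 1.25% in every list, a difference of 0 (exact permutation p = 1), and relative to all coding genes the difference between conditions was −0.03 points (exact permutation p = 1). No member gained or lost the mark in both replicates, as 0.0905% and 0.0476% of all coding genes did. Rpl39l was thus the member with an H3K9me3 peak in every list, an ATAC peak in the replicates 2 and a G4 peak in TERRA KD replicate 1 at the 16.3 percentile.

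Of the 80 members, 12 shared their promoter with another coding gene on the other strand, whose start lay within 1 kb. The nearest were Rps28 with Ndufa7 at 10 bp, Rpl9 with Lias at 66 bp, Rps27 with Rab13 at 67 bp, Rpl18 with Sphk2 at 69 bp and Rpl12 with Lrsam1 at 71 bp. A peak at such a TSS belongs to both genes. Their ATAC percentiles were 79.2 to 88.4 for Rps28, 90.04 to 93.2 for Rpl9, 67.5 to 85.2 for Rps27, 35.9 to 67.1 for Rpl18 and 59.6 to 77.0 for Rpl12. Rps28, Rpl9 and Rps27 had no G4 peak in any list, Rpl12 and Rpl18 had one in 1 list each, and Rpl18 alone of these 5 had an ATRX peak. A small nucleolar RNA lay within 28 of the 80 genes on the same strand.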

How the data were processed

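Peaks had been called by the authors in each library with a p of 0.01 after trimming (Trim Galore 0.5.0), alignment to GRCm38/mm10 (Bowtie2 2.3.4.1, default settings) and removal of duplicates (SAMtools 1.9), with MACS 1.4.3 (ATRX, H3K9me3) or 1.4.2 (G4) against input, and 2.2.7.1 (ATAC) without input. For the first 3 assays the deposited values per peak are a count of tags, a score (a scaled −log10 p), a fold enrichment ratio and a false discovery rate in percent, which was not used. The deposited ATAC values are pileup signal, −log10 p and fold enrichment. None is scaled between libraries. Ribosomal protein genes have many processed pseudogenes, and reads over exons that fit several places equally well are placed at 1 of them by the default alignment.

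The TSS was the most upstream curated start and the window 1000 bp on each side. A peak was placed at a TSS by an overlap of at least 1 bp. Conditions were compared by an exact two-sided permutation of the samples, and with a sign-flip test by replicate number. Members are named when they gain or lose a peak in both replicates, have ATRX or H3K9me3 in both replicates of a condition, have no ATAC peak, are among the 5 highest or lowest by mean ATAC or G4 percentile, end in l, or share a promoter (up to 5). Rpl32l was added to the paralogs as it meets the symbol pattern. The members and lists were chosen with earlier results of these data known, and the comparison past the gene end and the splits by GC and motif after the data were seen. The 6 input libraries were not used here. The overlap code was tested on simulated data (Python, pandas and numpy).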

Additional observations from a re-analysis of the deposited data

How the results depend on the processing

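Of 146 recalculations over 15 results and 15 settings, 120 neither turned nor moved a result, 17 turned a difference between conditions (TERRA KD minus scramble KD) and 9 moved a count by over 1.5 times. Among the 120, a difference fell to 0 in 6 (the ATRX share in 2, the ATAC share in 4), and the H3K9me3 share, 0 before, was −0.625 points in 2. The cause was not tested. With peaks of −log10 p at least 5, the ATAC share of members was −0.625 points, the G4 rank −8.06 percentile points, the ATRX share relative to all coding genes −0.126 points, and 0 members lost a G4 peak. With 500 bp, the ATAC share was −0.625 and the relative ATRX share −1.39 points. With 2000 bp, the relative G4 share was −0.974 points, the G4 rank −5.61 and the relative H3K9me3 share 0.0286. With equal numbers of top-ranked peaks, the relative ATRX share was −0.617 points and 0 members lost a G4 peak. Without the paralogs, the relative G4 share was −0.469 points and the G4 rank −15.4. Leaving out 1 replicate gave 0 to 1.25 points for the ATAC share, −2.78 to 0.779 for the relative ATAC share, −38.8 to 5 for the G4 share, −1.94 to 5.92 for the relative G4 share, −16.8 to 17.8 for the G4 rank, 1.25 to 12.5 for the ATRX share, −3.02 to 5.30 for the relative ATRX share and −0.0857 to 0.0333 for the relative H3K9me3 share. It also gave 2 to 11 ATRX gains, 1 to 1 ATRX losses, 0 to 15 G4 gains and 11 to 31 G4 losses, which then rest on 1 sample per condition. The alternatives for peaks past the gene end, added after seeing the data, gave 1.25 to 12.5 points.

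With the replicate number as a replicate block, the mean differences were the same (−16.9 points for the G4 share, 6.88 for ATRX) and the smallest sign-flip p is 0.5, so the paired test changed no call. The deviations of same-numbered libraries over all coding TSS had an r of 0.138 for ATAC, 0.251 for G4, 0.0166 for ATRX and 0.399 for H3K9me3, and nothing in the labels ties the numbers to a shared culture. With 2 samples per condition and G4 depths that differ by several fold, a missing peak is one not called in that list. The G4 shares did not follow depth throughout. TERRA KD replicate 2, with 13127555 tags, had a G4 peak at 20.5% of coding TSS. Scramble KD replicate 1, with 2961038 tags, had one at 44.1%.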

Other observations

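Past the gene end, ATRX peaks lay at 0%, 0%, 8.75% and 5% of the ribosomal protein genes and at 0.743%, 1.01%, 4.6% and 3.19% of all coding genes, in the order scramble KD replicates 1 and 2 and TERRA KD replicates 1 and 2. The stretch is the 2 kb past the most downstream curated end, with peaks near a coding TSS left out. The 3424 other open genes under 10 kb had ATRX peaks there in 1.05%, 0.73%, 5.23% and 4.53%. The ATRX lists held 7321, 13652, 41384 and 21718 peaks. With the 7321 strongest of each, 0%, 0%, 0% and 1.25% of members had one in this stretch. With −log10 p at least 5 the share was 0% in every list. H3K9me3 peaks lay there at 1.25%, 0%, 1.25% and 0% of the ribosomal protein genes and at 2.91%, 3.4%, 2.87% and 3.44% of all coding genes. These values were not tested.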
